A study of Mus musculus with 8 samples.

Results

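The genes of DNA methylation and demethylation were followed in 2-cell mouse embryos that lack Gadd45a and Gadd45b. The 10 genes were chosen by name: the methyltransferases Dnmt1, Dnmt3a and Dnmt3b, the cofactor Dnmt3l, the maintenance factor Uhrf1, the protector Dppa3, the dioxygenases Tet1, Tet2 and Tet3, and the glycosylase Tdg. All 10 were found among the 37310 gene identifiers of the count tables. Reads per gene were counted in 4 pools of embryos with a double knockout of Gadd45a and Gadd45b (DKO) and in 4 pools of wild-type embryos, all on the C57BL/6N strain. Each pool held 23 to 35 embryos of a single litter, taken 20 h after a plug was seen in superovulated, naturally mated females of 3 to 4 weeks, which were themselves DKO or wild-type. The knockouts are inherited alleles, so DKO embryos came from DKO mothers, and loss of the maternal product and of the embryonic product cannot be told apart. Which part of each gene is deleted, and how the DKO and wild-type colonies are related, is not stated in the labels.

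DNA methylation in mammals sits mainly on cytosines of CpG dinucleotides. DNMT3A and DNMT3B, aided by the catalytically inactive DNMT3L, set new methylation, and UHRF1 brings DNMT1 to replicated DNA to copy it. TET enzymes oxidize 5-methylcytosine, and TDG excises the more oxidized forms so that base excision repair can restore cytosine. After fertilization much of the inherited methylation is lost, with TET3 oxidizing the paternal genome and DPPA3 (STELLA) shielding the maternal one. GADD45 proteins have been described as adaptors that link TET enzymes and TDG to sites of active demethylation.

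Libraries held 21329736 to 23919114 counts, and pools of a genotype differed by more than sampling noise. Gadd45b, the stress-inducible target that checks the labels, had 4, 14, 1 and 6 counts in DKO replicates 1 to 4, against 910, 946, 1395 and 808 counts in wild-type replicates 1 to 4. Gadd45a had 237, 247, 163 and 201 counts in DKO, against 482, 341, 502 and 468 counts in wild-type; reads outside a deleted part would still be counted, so these do not check the label. All 9 markers of the 2-cell stage were detected, with a summed level of 779 to 1170 CPM (the count relative to the TMM-scaled library total) in DKO and 593 to 1020 CPM in wild-type. Among 14 cumulus and granulosa cell markers, 12 averaged below 1 CPM and Amh, Inhba, Foxl2 and Ptx3 had 0 counts in every library. The sum of the 14 was 8.08 to 13.4 CPM in DKO and 8.82 to 14.4 CPM in wild-type. Of 8 sperm markers 7 averaged below 1 CPM, and Odf2 made up most of the sum. The sperm sum was 109 CPM in DKO replicate 1 and 51.8 to 76.8 CPM in the other DKO pools. In wild-type the sperm sum was 57.7 to 66.4 CPM. Of the 3 blood cell markers matched, Hba-a1 averaged 13.4 CPM, while the leukocyte markers Ptprc and Lyz2 averaged below 1 CPM. The blood sum, mostly Hba-a1, was 51.1 CPM in DKO replicate 4 and 45.1 CPM in wild-type replicate 1. The other pools had 1.93 to 3.8 CPM of blood cell markers. DKO replicate 1 stood apart, with a limma-voom quality weight of 0.365 where the other 7 libraries had 0.786 to 2.08. It also carried the highest sum of 12 oocyte and maternal markers, 20300 CPM, against 11900 to 14000 CPM in the other DKO pools and 7140 to 12300 CPM in wild-type. Most of this sum came from Omt2a, Omt2b and Btg4, with means of 4400, 3660 and 4080 CPM in DKO and 2900, 2190 and 2350 CPM in wild-type. Of the 12 markers 10 had a positive log2 fold change, but Zp1, Zp2, Zp3 and Nlrp5 had nearly equal means in the genotypes. In pooled embryos, fewer embryos carrying a transcript and less of it per embryo cannot be told apart.

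Because CpG dinucleotides are what these enzymes act on, the promoter windows of 2 members are shown with CpG in capitals. Neither was called as different between the genotypes. Dnmt3l was the 1 of 9 tested members without overlap between the genotypes, where 5.34% of all genes had none. Tet3 had a difference that rested on a single pool. Each is 300 bases on GRCm38.p6, from 250 bases before to 50 bases after a RefSeq start, read 5′ to 3′ on the gene's strand.
Dnmt3l window 1, chr10:78042037-78042336, plus strand: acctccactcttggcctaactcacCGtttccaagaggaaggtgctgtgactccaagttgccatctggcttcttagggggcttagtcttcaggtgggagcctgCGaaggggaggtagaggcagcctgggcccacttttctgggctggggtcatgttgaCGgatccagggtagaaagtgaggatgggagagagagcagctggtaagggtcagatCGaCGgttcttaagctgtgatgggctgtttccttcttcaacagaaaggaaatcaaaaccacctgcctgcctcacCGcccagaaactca
Dnmt3l window 2, chr10:78049592-78049891, plus strand: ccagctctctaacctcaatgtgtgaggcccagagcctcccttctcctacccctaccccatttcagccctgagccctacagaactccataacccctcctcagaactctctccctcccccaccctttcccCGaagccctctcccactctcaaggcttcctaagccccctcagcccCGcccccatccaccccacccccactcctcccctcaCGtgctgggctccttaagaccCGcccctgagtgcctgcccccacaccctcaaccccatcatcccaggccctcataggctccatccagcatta
Dnmt3l window 3, chr10:78055085-78055384, plus strand: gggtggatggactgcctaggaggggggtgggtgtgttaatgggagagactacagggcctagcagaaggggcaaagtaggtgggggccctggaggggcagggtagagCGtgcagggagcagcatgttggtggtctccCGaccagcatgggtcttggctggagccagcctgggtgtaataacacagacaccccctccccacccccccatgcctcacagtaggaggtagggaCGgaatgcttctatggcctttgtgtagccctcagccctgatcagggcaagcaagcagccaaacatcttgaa
Tet3 window 1, chr6:83441629-83441928, minus strand: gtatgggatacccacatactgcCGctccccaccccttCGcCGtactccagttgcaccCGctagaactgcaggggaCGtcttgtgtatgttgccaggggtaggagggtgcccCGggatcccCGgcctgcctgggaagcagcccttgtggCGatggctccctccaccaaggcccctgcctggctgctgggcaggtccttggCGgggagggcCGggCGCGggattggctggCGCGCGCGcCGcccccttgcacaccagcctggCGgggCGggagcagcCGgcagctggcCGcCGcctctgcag
The 3 Dnmt3l windows held 6, 4 and 3 CpG, and the Tet3 window held 22. Over all 32851 RefSeq windows of this length the median was 7 CpG, 56.4% held at least 6, and 23.1% held at least 22. RefSeq windows matched 9 of the 10 members, all but Dppa3. The densest were those of Tet2, with 57 CpG, a number reached by 0.152% of windows, and of Dnmt3a, with up to 47 CpG. Dnmt1 had starts of unlike density, at 2, 12 and 33 CpG. Counts are summed over a gene, so they do not say which of the starts of Dnmt3l or Dnmt1 was used, nor do they separate the oocyte form of DNMT1 from the somatic form.

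The abundance of the members spanned several orders of magnitude in both genotypes. Per exon length, as RPKM (CPM per kilobase of annotated exon), Dppa3 stood at 8920 ± 476 in DKO and 8740 ± 870 in wild-type (n = 4 per genotype, SD), the third highest of 14415 tested genes with a length. Dnmt3l followed at 24.6 ± 7.15 RPKM in DKO and 16.8 ± 2.33 RPKM in wild-type (n = 4 per genotype, SD). Between Dppa3 and Dnmt3l, and between Dnmt3l and the member below it, the ranges over the 8 pools did not overlap. Tet1, Dnmt3a, Dnmt1, Uhrf1, Tet3 and Dnmt3b came next in that order of mean level, and each overlapped its neighbour, so their order is not fixed beyond the spread. Tet1 had 6.24 ± 1.3 RPKM in DKO and 6.68 ± 1.34 RPKM in wild-type, and Dnmt3b had 1.09 ± 0.309 RPKM in DKO and 0.737 ± 0.306 RPKM in wild-type (n = 4 per genotype, SD). Tet2 lay below all of these, at 0.243 ± 0.0557 RPKM in DKO and 0.157 ± 0.0245 RPKM in wild-type (n = 4 per genotype, SD). With the longest transcript as the length, Dnmt3a moved above Tet1 and Tet3 above Uhrf1, and the other places were kept.

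**Figure D1:**
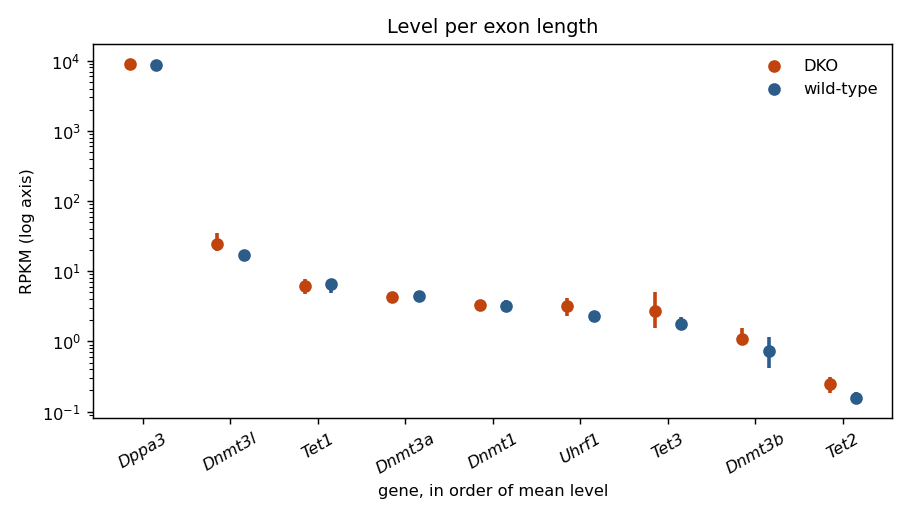
Level of each member per exon length (RPKM, log axis) in DKO and wild-type pools; points are means of 4 pools and vertical lines run from the lowest to the highest pool. Dppa3 lies near 8920 RPKM in DKO and 8740 RPKM in wild-type, far above the others, and Tdg, near 0, is not drawn.

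Within the TET family, Tet1 was the main transcript per length in 7 of the 8 pools, with 68.5% ± 14.8 of the summed RPKM in DKO and 77.2% ± 7.04 in wild-type (n = 4 per genotype, SD). In DKO replicate 1 Tet3 held the largest share, 49.7%, beside 47.2% for Tet1. On average Tet3 held 28.9% ± 14.5 in DKO and 21% ± 6.94 in wild-type, and Tet2 held 2.63% ± 0.434 in DKO and 1.85% ± 0.371 in wild-type (n = 4 per genotype, SD). Of the summed RPKM of Dnmt3a, Dnmt3b and Dnmt3l, Dnmt3l made up 81.7% ± 2.92 in DKO and 76.2% ± 3.28 in wild-type (n = 4 per genotype, SD). Dnmt3l has no methyltransferase activity of its own. Of the summed RPKM of Dnmt1, Dnmt3a and Dnmt3b, Dnmt3a held 49.2% ± 4.21 in DKO and 53.2% ± 6.16 in wild-type (n = 4 per genotype, SD). The related Dnmt3c, not a member, was left out of both sums.

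The comparison of DKO with wild-type asked whether loss of the GADD45 proteins came with a change in the RNA of the enzymes they are linked to. No member was called: 9 of the 10 passed the filter on low counts, and 0 of these reached an adjusted p under 0.05 in edgeR's quasi-likelihood test over 14970 genes, where 0.0267% of all genes did. DESeq2, which called 0.314% of genes, and limma-voom also called 0 members. Dnmt3l alone had an unadjusted p under 0.05, 1 of 9 members where 10.2% of all genes had one. Of the 9, 7 had a positive log2 fold change (DKO minus wild-type) and 2 a negative one, against 51.2% positive over all genes. The split was 5 to 4 without wild-type replicate 2 and 6 to 3 without wild-type replicate 4. The median log2 fold change of the 9 was 0.50, and that of all genes was 0.01. Without DKO replicate 1 the median of the 9 was 0.12 and that of all genes −0.01.

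**Figure D2:**
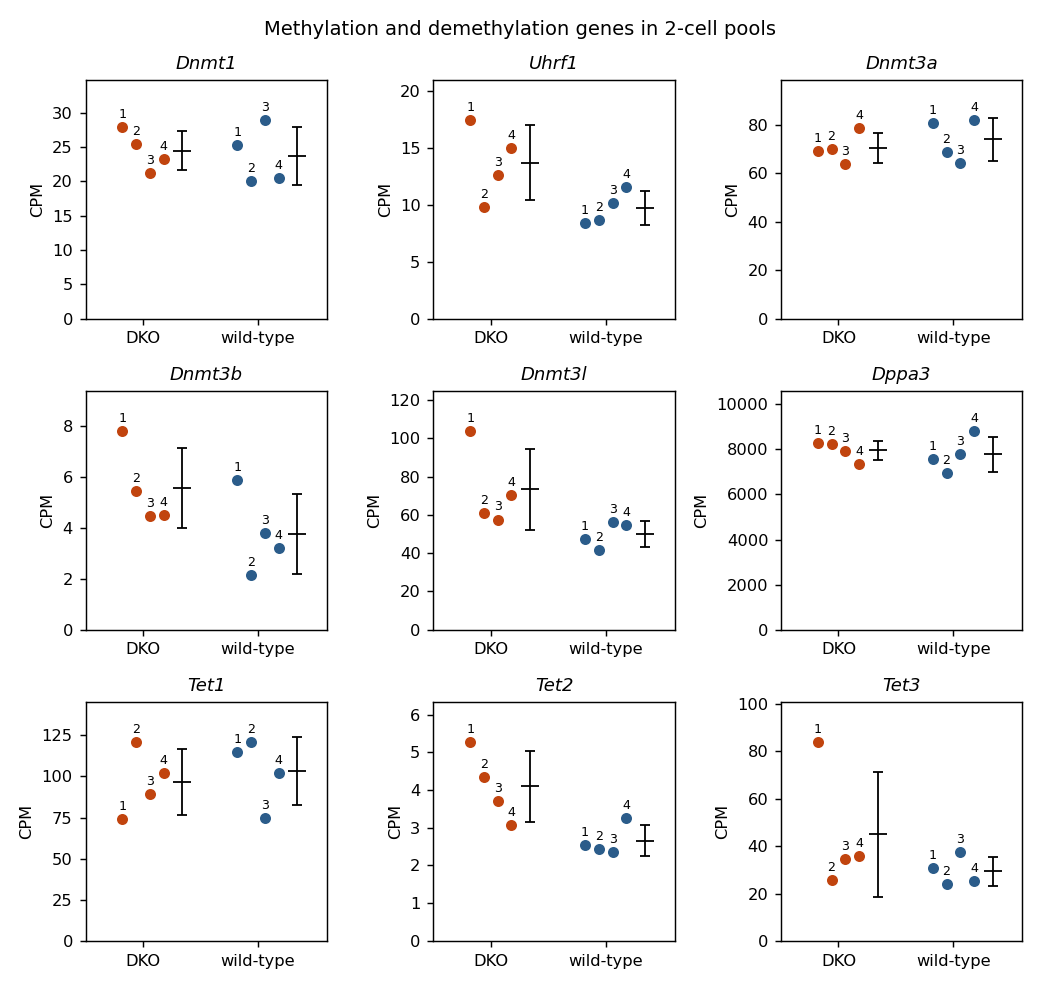
CPM of the 9 tested members in each pool, DKO left and wild-type right, with the replicate number above each point and the mean and SD of the 4 pools beside them. Only the Dnmt3l panel has no overlap, with the lowest DKO pool at 57.6 CPM and the highest wild-type pool at 56.5 CPM; DKO replicate 1 is the highest pool for Tet3, Dnmt3l, Dnmt3b, Tet2 and Uhrf1.

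Neither gene of the maintenance pair, Dnmt1 and Uhrf1, was called. Dnmt1, which copies methylation to the new strand, had 27.9, 25.5, 21.2 and 23.3 CPM in DKO replicates 1 to 4, against 25.3, 20.0, 29.0 and 20.5 CPM in wild-type replicates 1 to 4. The groups lay on top of each other, and the highest pool of all was wild-type replicate 3. Its log2 fold change was 0.05 (SE 0.19; adjusted p by edgeR 0.942), with a 95% interval of −0.36 to 0.45, or a fold of 0.781 to 1.37. Uhrf1, which recognizes hemimethylated CpG, had 17.5, 9.79, 12.6 and 15 CPM in DKO, against 8.42, 8.64, 10.2 and 11.6 CPM in wild-type. The 3 highest pools were DKO, but DKO replicate 2 lay within the wild-type range. The log2 fold change of Uhrf1 was 0.50 (SE 0.23; adjusted p by edgeR 0.488), and 0.35 without DKO replicate 1. Of the 85-base words in Uhrf1 transcripts, 7.42% also occur in the pseudogene Gm5648, which had 0 counts in every library.

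The de novo methyltransferases Dnmt3a and Dnmt3b were not called either. Dnmt3a had 69.4, 70.0, 63.8 and 78.8 CPM in DKO, against 80.8, 68.8, 64.5 and 82.3 CPM in wild-type. Its range over the 8 pools was 1.29-fold, and the groups overlapped. The log2 fold change was −0.07 (SE 0.15; adjusted p by edgeR 0.873), with a 95% interval of −0.39 to 0.25. Dnmt3b, at a far lower count, had 7.82, 5.45, 4.47 and 4.49 CPM in DKO, against 5.87, 2.16, 3.80 and 3.22 CPM in wild-type. It spanned 3.52-fold over the pools, the widest range of any tested member. Wild-type replicate 1 lay above 3 of the DKO pools, and the log2 fold change of 0.56 (SE 0.34; adjusted p by edgeR 0.549) had a 95% interval of −0.16 to 1.29. Leaving out DKO replicate 1 gave 0.34, leaving out wild-type replicate 1 gave 0.85, and leaving out wild-type replicate 2 gave 0.37. Dnmt3b shares 5.39% of its 85-base words with its relative Dnmt3c, so reads of the pair are uncertain there.

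Dnmt3l, the cofactor that stimulates DNMT3A in the germ line, had 104, 61.2, 57.6 and 70.5 CPM in DKO, against 47.3, 41.6, 56.5 and 54.9 CPM in wild-type. All 4 DKO pools lay above all 4 wild-type pools, though DKO replicate 3 and wild-type replicate 3 were nearly level. It was the only member of the 9 without overlap, where 2.79% of all genes were higher in DKO without overlap and 5.34% had no overlap in either direction. Its log2 fold change was 0.55 (SE 0.20, 95% interval 0.13 to 0.98), a 1.47-fold difference with an unadjusted p of 0.0143 and an adjusted p by edgeR of 0.469. Over 18 alternatives the adjusted p was 0.276 to 0.915 and the log2 fold change 0.31 to 0.66, with the sign kept in all 18. Without DKO replicate 1 it was 0.33. Dnmt3l lies 2.87 Mb from Gadd45b on chromosome 10 of GRCm38, and Tdg lies 1.7 Mb from it. Of 121 tested genes within 3 Mb of Gadd45b, 7, Dnmt3l among them, were higher in DKO without overlap and 9 lower, together 13.2%, against 5.34% of all genes. The part of this position in the Dnmt3l difference was not tested.

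Dppa3, the maternal factor that binds H3K9me2-marked chromatin, had 8290, 8230, 7930 and 7360 CPM in DKO, against 7590, 6960, 7800 and 8830 CPM in wild-type. Both the lowest and the highest pool were wild-type, and the range over the 8 pools was 1.27-fold, the narrowest of the tested members. Its log2 fold change was 0.03 (SE 0.14; adjusted p by edgeR 0.952), with a 95% interval of −0.27 to 0.33, the narrowest interval of the 9.

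**Figure D3:**
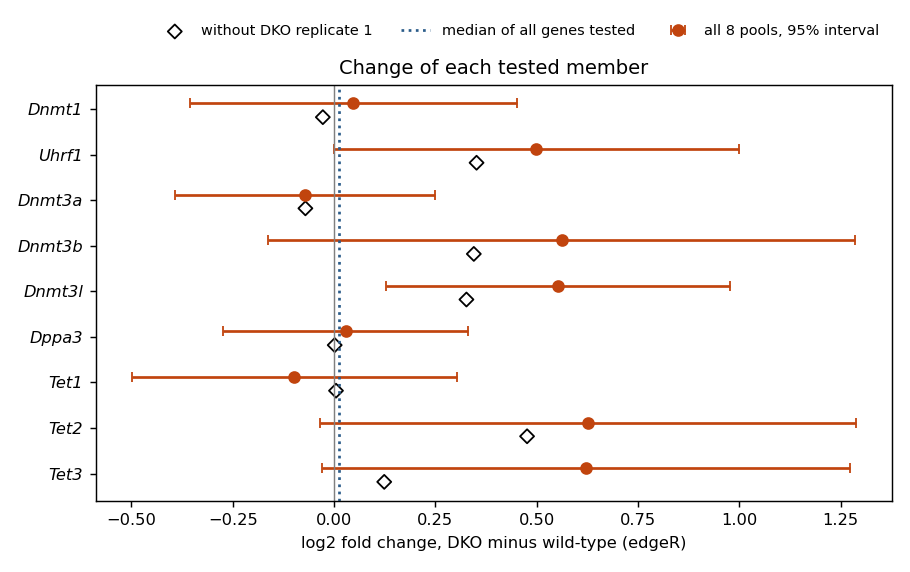
Log2 fold change (DKO minus wild-type) of the 9 tested members with 95% intervals over all 8 pools (filled circles), beside the value without DKO replicate 1 (open diamonds) and the median of all genes tested (dotted line). The interval of Dnmt3l, from 0.13 to 0.98, is the only one that leaves out 0, and without DKO replicate 1 Tet3 lies at 0.12.

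None of the TET genes was called, and their log2 fold changes differed in sign. Tet1, the most abundant of them, had 73.9, 121, 89.1 and 102 CPM in DKO, against 115, 121, 74.8 and 102 CPM in wild-type. The groups covered the same range, with a low pool in each, and the log2 fold change was −0.10 (SE 0.19; adjusted p by edgeR 0.857, 95% interval −0.50 to 0.30). Its sign turned in 2 of 18 alternatives, the highest value being 0.07.

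Tet2, best known from blood cells and present here at 53 to 118 counts a library, had 5.28, 4.35, 3.71 and 3.07 CPM in DKO, against 2.55, 2.44, 2.37 and 3.26 CPM in wild-type. DKO replicate 4 lay below wild-type replicate 4, which was the only overlap. The log2 fold change was 0.63 (SE 0.31; adjusted p by edgeR 0.489), with a 95% interval of −0.03 to 1.29 and a value of 0.48 without DKO replicate 1.

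Tet3, the dioxygenase of the zygote, had 84.0, 25.8, 34.7 and 35.7 CPM in DKO, against 30.8, 23.9, 37.4 and 25.1 CPM in wild-type. DKO replicate 1 stood alone above the rest, and the other 3 DKO pools lay within the wild-type range. With all pools the log2 fold change was 0.62 (SE 0.31; adjusted p by edgeR 0.489), and without DKO replicate 1 it was 0.12, with an adjusted p by edgeR of 0.959; over 18 alternatives the adjusted p was 0.281 to 0.965. Tet3 lies on chromosome 6, 16.3 Mb from Gadd45a.

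Tdg, the glycosylase that completes TET-dependent demethylation, was close to undetected. It had 0, 1, 1 and 0 counts in DKO replicates 1 to 4, against 0, 3, 6 and 1 counts in wild-type replicates 1 to 4, and did not pass the filter. With totals of 2 counts in DKO and 10 counts in wild-type, near a floor of 3 counts over a group, no fold change is given. Of the 85-base words in Tdg transcripts, 31.1% also occur in other annotated genes: 1136 words in the pseudogene Tdg-ps, 723 in Gm9855, 651 in Gm5597, 283 in the protein-coding Glt8d2 and 87 in 1 more pseudogene. Tdg-ps had 0 counts in both groups, Gm9855 had 2 in DKO and 0 in wild-type, and Glt8d2 had 0 in DKO and 20 in wild-type. Gm5597 and the last pseudogene were not among the gene identifiers counted. The labels do not say how reads that map to several places were treated, so the few Tdg counts do not show that the transcript is absent, and the part of these shared words was not tested.

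Some differences between pools were shared by the genotypes. In each genotype the pool with the highest Tet3 had the lowest Tet1, DKO replicate 1 among DKO pools and wild-type replicate 3 among wild-type pools. The ratio of Tet3 to Tet1 CPM was 1.14, 0.213, 0.39 and 0.351 in DKO replicates 1 to 4, against 0.267, 0.197, 0.50 and 0.247 in wild-type replicates 1 to 4. Those pools also had the highest sum of oocyte and maternal markers in their genotype, 20300 CPM in DKO replicate 1 and 12300 CPM in wild-type replicate 3. Over 7996 genes, their deviations from the genotype means correlated at 0.524, so their likeness was not confined to these genes. The 2-cell marker sum of wild-type replicate 3, 1020 CPM, was the highest in wild-type, while that of DKO replicate 1, 818 CPM, was not the highest in DKO. Dnmt3l had its highest pool of each genotype in the same places, at 104 CPM and 56.5 CPM, and so did Dnmt1, at 27.9 CPM and 29.0 CPM. Over the 9 tested members, wild-type replicate 3 was the highest wild-type pool for 3 and wild-type replicate 4 for 4. Tet2, highest in DKO replicate 1 at 5.28 CPM, had its lowest value of all in wild-type replicate 3, at 2.37 CPM. Over all 9 tested members, DKO replicate 1 was the highest of the 8 pools for 5, and wild-type replicate 2 was the lowest for 5. Without DKO replicate 1 the log2 fold change of Tet3 was 0.12 and that of Dnmt3l 0.33; the part of the maternal transcripts in the members' differences was not tested.

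**Figure D4:**
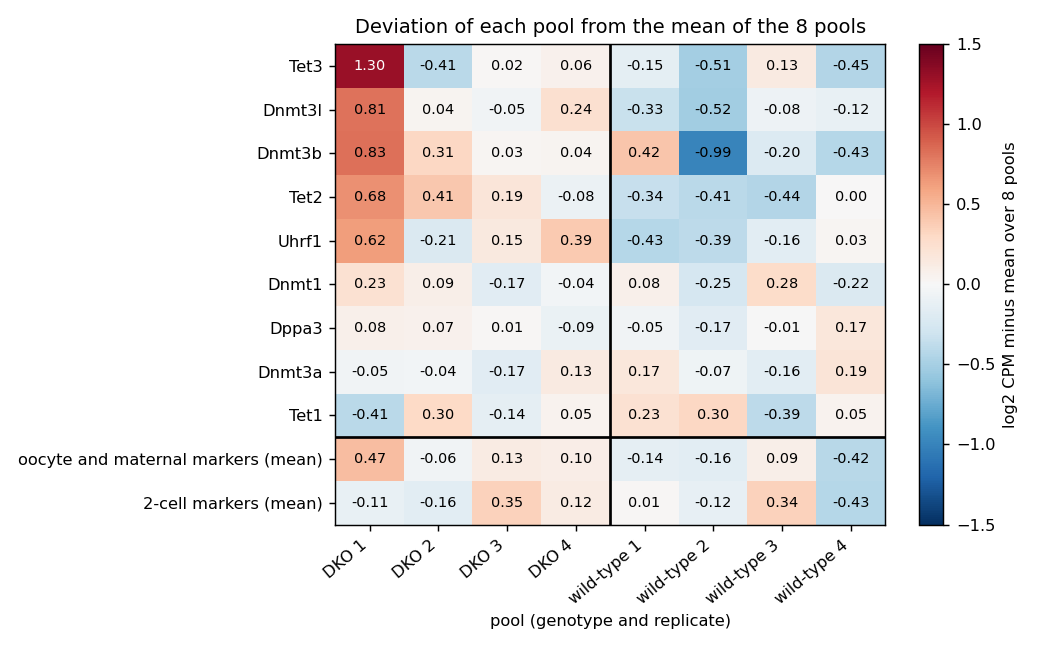
Log2 CPM of each tested member minus its mean over the 8 pools (color and number), with the mean of the same measure over the tested oocyte and maternal markers and over the 2-cell markers in the bottom rows; DKO pools left, wild-type pools right. DKO replicate 1 has Tet3 at 1.30 and Tet1 at −0.41, and wild-type replicate 3 has Tet3 at 0.13 and Tet1 at −0.39.

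Likeness to other genes was measured as the mean absolute difference between log2 CPM profiles over the 8 pools, each centred on its own mean, among 7423 other genes. It was computed for the 3 members with the widest range. The nearest profiles to Tet3 were those of Shisa5, at 0.0773, Smim11, at 0.0842, and Sytl4, at 0.109, where the median gene lay at 0.454. Tet3 stood 1.30 above its mean in DKO replicate 1, and the highest deviations of Shisa5, Smim11 and Sytl4 were 1.19, 1.33 and 1.26. Likeness without that pool was not tested. For Dnmt3l the nearest were Grb10, at 0.0668, Slc25a48, at 0.0767, and Rfx7, at 0.0790, with a median of 0.359. The profile of Dnmt3b lay nearest to Aig1, at 0.129, Gpat4, at 0.152, and Zfp800, at 0.153, with a median of 0.466.

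Other genes of the pathway were called in neither direction. Of 75 genes in 6 lists, 71 were tested and 0 rose or fell at an adjusted p under 0.05 by edgeR or DESeq2. The 71 had 38 positive and 33 negative log2 fold changes and a median of 0.03, beside 0.01 over all genes. By edgeR 4 of the 71 had an unadjusted p under 0.05, where 10.2% of all genes did, 2 of them higher and 2 lower.

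In the methyl donor cycle, which makes S-adenosylmethionine for every methyltransferase, 3 of 15 tested genes were positive and 12 negative, with a median of −0.15. The 2 with the smallest p were enzymes of folate metabolism. Shmt2, the mitochondrial serine hydroxymethyltransferase, had 55.4 ± 15.8 CPM in DKO and 36.5 ± 5.82 CPM in wild-type (n = 4 per genotype, SD), a log2 fold change of 0.60 (SE 0.20; adjusted p by edgeR 0.469) that was 0.38 without DKO replicate 1. Mthfd1, a cytosolic enzyme of the folate cycle, had 6.72 ± 1.67 CPM in DKO and 12 ± 4.98 CPM in wild-type (n = 4 per genotype, SD). Its log2 fold change was −0.83 (SE 0.31, adjusted p by edgeR 0.469). This was −0.57 without wild-type replicate 1, and −1.03 to −0.55 over 17 alternatives.

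Among methyl-CpG readers and CpG binders, 10 of 11 tested genes were positive, with a median of 0.17. The exception was Mbd4, a glycosylase that removes thymine from deaminated methyl-CpG, at 33.6 ± 4.42 CPM in DKO and 41.5 ± 3.08 CPM in wild-type (n = 4 per genotype, SD). It was the only tested gene of the 6 lists whose groups did not overlap, 1 of 71. Of all genes, 5.34% had no overlap in either direction and 2.55% were lower in DKO without overlap. Mbd4 had a log2 fold change of −0.30 (adjusted p by edgeR 0.518). Kdm2b, a CpG-island binder, had a log2 fold change of 0.30 (adjusted p by edgeR 0.517).

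Partners of maintenance and de novo methylation had 5 positive and 9 negative of 14, with a median of −0.06 and values from −0.28 to 0.19. Hells, a chromatin remodeler needed for methylation, stood at 209 ± 20.3 CPM in DKO and 184 ± 17.8 CPM in wild-type (n = 4 per genotype, SD), and the H3K9 methyltransferase Setdb1 had a log2 fold change of 0.19. For TET cofactors and partners, 7 of 10 were positive with a median of 0.06. Qser1, which protects regulatory DNA from methylation together with TET1 in human stem cells, had 70.5 ± 13.1 CPM in DKO and 54.0 ± 4.69 CPM in wild-type (n = 4 per genotype, SD; log2 fold change 0.38, adjusted p by edgeR 0.476). Idh2, a mitochondrial source of the TET cosubstrate 2-oxoglutarate, had a log2 fold change of −0.41 (adjusted p by edgeR 0.526), and of −0.26 without DKO replicate 1.

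Deaminases and base excision factors had 11 of 17 positive and a median of 0.05. Neil3, a glycosylase of oxidized bases, had a log2 fold change of 0.43 and Parp2, a sensor of strand breaks, one of −0.31 (adjusted p by edgeR 0.544 and 0.538). Without DKO replicate 1 these were 0.23 and −0.17, and Neil3 was at 0.28 without DKO replicate 3. The last list held 4 relatives outside cytosine methylation itself. In it Dppa2 and Dppa4, which guard promoters against methylation, had 367 ± 114 and 570 ± 129 CPM in DKO, against 543 ± 184 and 747 ± 154 CPM in wild-type (n = 4 per genotype, SD). Their log2 fold changes were −0.57 and −0.39 (adjusted p by edgeR 0.48 and 0.489), and Dppa2 was at −0.34 without wild-type replicate 4.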

How the data were processed

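Polyadenylated RNA of 8 embryo pools was sequenced. Per the labels' protocols, SMART-Seq cDNA was amplified in 11 PCR cycles and libraries in 11 more, and single reads of 85 cycles came from a shared flow cell. A longer poly(A) tail and more RNA cannot be told apart in such libraries, and reads are not independent molecules. The deposited values are raw counts per gene, not normalized. Per the submitters' processing notes, tools included STAR 2.5.2b, featureCounts 1.5.1 and DESeq2 1.18.1, with builds NCBIM37 and mm9; settings for strand and multi-mapping are not stated there. Symbols (32620 of 37310 identifiers), lengths, distances and shared words came from GENCODE M21, and promoters from RefSeq, both on GRCm38, which is later than the build of the counts.

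The gene test was that of edgeR 4.0.16 under R 4.3.3 (filterByExpr, TMM, robust quasi-likelihood, Benjamini-Hochberg over all 14970 genes tested, threshold 0.05, no covariates). Log2 CPM used a prior count of 2, SE and 95% intervals come from that fit, and RPKM is CPM per kilobase of the union of exons. DESeq2 1.42.0, limma-voom 3.58.1, other scalings, filters and thresholds, a replicate block, embryo number and left-out libraries were alternatives, and the gene tests were tested on simulated data. Pools are separate litters, so p-values measure the spread between litters. Members and lists were chosen with earlier results of these data known. Of 76 list symbols 1, Vprbp, had no match, being an older name of Dcaf1. Named were the members, Gadd45a, Gadd45b, list genes past the threshold or else the 2 with the smallest p per list, and the 3 nearest profiles to each of 3 members; Dnmt3c was named after its values were seen.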

Additional observations from a re-analysis of the deposited data

Results flagged for a closer look

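Tet3 in DKO replicate 1, at 84.0 CPM, lay far from the other DKO pools, which had 25.8, 34.7 and 35.7 CPM. The gap to the nearest pool, set against the whole range of the 4, just passed the 95% limit of Dixon for groups of 4. It was the only one of 18 groups of 4 examined over the 9 tested members that passed this limit, and chance passes about 1 in 20. The same pool had the highest sum of oocyte and maternal markers, 20300 CPM, and without it the log2 fold change of Tet3 was 0.12 in place of 0.62.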

How the results depend on the processing

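No member and no other pathway gene was called under any of the 20 alternatives run, so none could change direction as a called result. Gadd45b was called in all 18 alternatives that gave a fold change, with its sign kept. Genes called over the whole table were 4 in the main test, 47 with DESeq2, 7 with no filter on low counts and 1 at a mean of at least 10 CPM. The median log2 fold change of the members, 0.50, was 0.27 with no filter (where Tdg entered), 0.083 at a mean of at least 10 CPM (7 members left), 0.16 without both libraries numbered 1, and 0.12 to 0.57 with each library left out in turn, lowest without DKO replicate 1. Dnmt1, Dppa3 and Tet1 changed sign in 3, 2 and 2 of 18 alternatives each, none of them called. Gadd45a, at a log2 fold change of −1.10 with DESeq2, was called there (adjusted p = 0.000899) and in no other of 18 alternatives (adjusted p up to 0.614). Same-numbered pools of the 2 genotypes shared only a number: their deviations correlated at −0.0585 to 0.263 over 7996 genes, while DKO replicate 1 lay closest to wild-type replicate 3 (0.524). With the replicate block 4 genes, 0 members and 0 pathway genes were called, with a member median of 0.48. The filter on low counts kept Tdg, at 0 to 6 counts a library, out of the main test.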

Other observations

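Dnmt3c, a rodent de novo methyltransferase known for silencing young retrotransposons in the male germ line and a near copy of Dnmt3b, was singled out after its values were seen. It had 3.89, 4.52, 3.67 and 3.83 CPM in DKO replicates 1 to 4, against 5.09, 6.71, 6.08 and 7.24 CPM in wild-type replicates 1 to 4. All 4 DKO pools lay below all 4 wild-type pools, as for 2.55% of all genes. Its log2 fold change was −0.66 (SE 0.26; adjusted p by edgeR 0.469, DESeq2 adjusted p = 0.291), while that of Dnmt3b was 0.56. Since 288 of the 85-base words of Dnmt3b also occur in Dnmt3c, counts of the pair are uncertain over that stretch.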
